A study of Mus musculus with 14 samples.

Results

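The effect of knocking down Ctns was set against the effect of cysteine starvation transcript by transcript in MEFs, fibroblasts grown from mouse embryos. Libraries were chosen by their labels: the knockdown effect was CTNS-KD minus NT2, the starvation effect was Cys minus NT, and the starvation effect was subtracted from the knockdown effect for all 1399 listed transcripts. This used 8 of the 14 libraries of the series, 2 in each group. CTNS-KD cells were transfected with sh-CTNS, a short hairpin RNA, and NT2 cells had no treatment. Cys cells were starved of cysteine, and NT cells again had no treatment. All 4 groups carried the genotype label WT. The time after transfection, the length of the starvation and any control hairpin were not given in the sources used here, so the loss of Ctns, the hairpin and the transfection itself cannot be told apart. Ctns itself was not analysed here, so the knockdown was not checked on its target. Which untreated group belongs with which treatment is likewise not stated. The columns of NT and Cys share a prefix in the file headers that those of NT2 and CTNS-KD lack, and the pairing used here rests on that naming. The labels do not say that replicate libraries are separate cultures; p-values here cover library-to-library spread and no more, and that spread may be technical.

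Ctns encodes cystinosin, the lysosomal membrane protein that carries cystine, the oxidised dimer of cysteine, out of the lysosome. Cystine released from lysosomes and cystine imported from the medium are separate sources of cytosolic cysteine. Shortage of an amino acid is sensed through uncharged transfer RNA, which leads to translation of the transcription factor ATF4 and to transcription of genes for amino acid import, amino acid synthesis and tRNA charging. Fibroblasts secrete collagens, fibronectin, laminins and the enzymes that crosslink and process them, and these matrix genes and the genes of the contractile cytoskeleton are their textbook products.

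Amino acid genes and matrix genes are followed below, and Aars was picked for its match to an ATF4 element in the stretch searched. Promoters of 2 amino acid genes and 2 matrix genes are shown here. Each is the 250 bases before the RefSeq start site, 5′ to 3′ on the strand of the gene, in the build GRCm38.p6: chr6:83317605-83317854 on the minus strand for Mthfd2, chr8:111033592-111033841 on the plus strand for Aars, chr6:4505368-4505617 on the plus strand for Col1a2 and chr1:45311288-45311537 on the plus strand for Col3a1. Capitals mark matches on either strand to TGATGNAA, the element bound by ATF4 with a C/EBP partner, and to CCAAT.
Mthfd2: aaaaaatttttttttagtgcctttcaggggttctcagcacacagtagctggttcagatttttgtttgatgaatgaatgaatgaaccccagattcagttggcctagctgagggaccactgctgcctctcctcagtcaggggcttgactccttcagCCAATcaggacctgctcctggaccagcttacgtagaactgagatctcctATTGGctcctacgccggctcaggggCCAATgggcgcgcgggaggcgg
Aars: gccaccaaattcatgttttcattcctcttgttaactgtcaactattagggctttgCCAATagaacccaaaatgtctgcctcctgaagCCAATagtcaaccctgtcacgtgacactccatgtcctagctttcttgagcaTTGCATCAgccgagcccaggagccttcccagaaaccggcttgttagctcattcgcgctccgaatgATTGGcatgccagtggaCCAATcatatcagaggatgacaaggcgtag
Col1a2: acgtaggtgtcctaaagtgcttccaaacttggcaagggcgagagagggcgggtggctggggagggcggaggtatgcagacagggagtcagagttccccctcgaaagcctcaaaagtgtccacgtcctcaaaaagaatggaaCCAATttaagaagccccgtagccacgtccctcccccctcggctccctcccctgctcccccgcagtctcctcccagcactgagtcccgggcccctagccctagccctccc
Col3a1: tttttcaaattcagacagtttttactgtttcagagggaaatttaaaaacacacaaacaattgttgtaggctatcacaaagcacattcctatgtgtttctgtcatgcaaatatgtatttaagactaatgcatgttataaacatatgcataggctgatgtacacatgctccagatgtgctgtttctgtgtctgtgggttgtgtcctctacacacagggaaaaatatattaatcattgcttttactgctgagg
The ATF4 element was matched in Aars alone among these 4, by TTGCATCA on the opposite strand. Among genes of the amino acid lists with a promoter in the table it was found in 1 of 11, Aars, against 0 of 23 matrix genes, 23 of 1084 listed genes and 1056 of all 27025 genes. CCAAT was found in 5 of 11 amino acid genes, against 8 of 23 matrix genes, 415 of 1084 listed genes and 10133 of all 27025 genes. By promoter, 3.45% of all 32851 held the element and 33.8% held CCAAT. A match describes these letters only, and none of the shares was tested.

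The counts behind the 2 effects were unequal. Totals over the listed transcripts were 79630 and 98481 in CTNS-KD and 132998 and 165747 in NT2, against 46925 and 51224 in Cys and 25697 and 33990 in NT. Libraries of a group differed more in the starvation pair, where chi-square per degree of freedom was 4.55 in Cys and 4.22 in NT, than in the knockdown pair, where it was 1.67 in CTNS-KD and 1.56 in NT2. The libraries of NT correlated at a Spearman coefficient of 0.556 across transcripts, against 0.830 in Cys and 0.936 to 0.976 in CTNS-KD and NT2. The 224 transcripts called above NT2 in NT, a choice that fixes which of the 2 groups has the larger share, held 73.7% ± 16.3 of NT counts and 7.89% ± 0.0307 of NT2 counts (SD, n = 2 each). The same 224 held 29.8% ± 0.592 of the counts in CTNS-KD and 46.0% ± 14.1 in Cys. Levels below are in CPM, a count relative to its library's total after TMM scaling by edgeR, differences are on the log2 scale, where 1 is a factor of 2, and ± after a log2 value is the standard error. A transcript is called where its p from edgeR's quasi-likelihood test, adjusted over all 1399, is under 0.05.

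Of 32 matrix genes 21 fell in the knockdown, against 13.2% of all transcripts, and 24 lay above NT in starved cells, against 711 of all 1399. Of 16 amino acid genes 15 lay above NT in starved cells. In the knockdown 3 of them fell and 1 rose, against 13.2% and 17.6% of all transcripts. Over all transcripts 478 lay above NT2 in the knockdown and below NT in starvation, 419 the reverse, 292 above in both and 210 below in both. The difference of effects was called for 268 transcripts (19.2%), of which 168 were higher (12.0%) and 100 lower (7.15%). A large difference favours opposite signs by its construction: among the 168 higher ones, 167 were above NT2 in the knockdown and below NT in starvation. Of the 100 lower ones, 96 were below NT2 in the knockdown and above NT in starvation. Across the 1399 transcripts the 2 effects, which share no library, had a Pearson coefficient of -0.48 and a Spearman coefficient of -0.43, given as a description. The median difference over all transcripts was -0.02, with 0.09 for the knockdown effect and 0.01 for the starvation effect.

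The 2 effects were not measured equally well. The knockdown effect was called for 431 transcripts (30.8%), with 246 higher (17.6%) and 185 lower (13.2%). Without NT2 replicate 1 the knockdown calls numbered 191, and 231 to 237 without NT2 replicate 2 or either CTNS-KD library. The starvation effect was called for 0 (0%): its smallest adjusted p was 0.0570, 230 transcripts had an unadjusted p under 0.05, and DESeq2 called 67, limma-trend 5 and voom 0. Without NT replicate 1 edgeR called 112 and without Cys replicate 2 it called 65. The median standard error was 0.296 for the knockdown effect and 0.543 for the starvation effect. The edgeR fit gave each transcript a single spread for all 14 libraries. Its errors and p-values therefore miss the unequal spread of the 2 pairs. Voom with quality weights let the spread differ between 2 sets of libraries. NT, Cys and full amino acid starvation formed 1 set and the remaining groups the other, a split that rests on the pairing used here. This voom fit called 153 differences of effects higher and 59 lower, of which 149 and 58 were also called by edgeR. The knockdown effect was called in the same direction in 140 of the 168 higher transcripts and in 83 of the 100 lower ones.

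**Figure D1:**
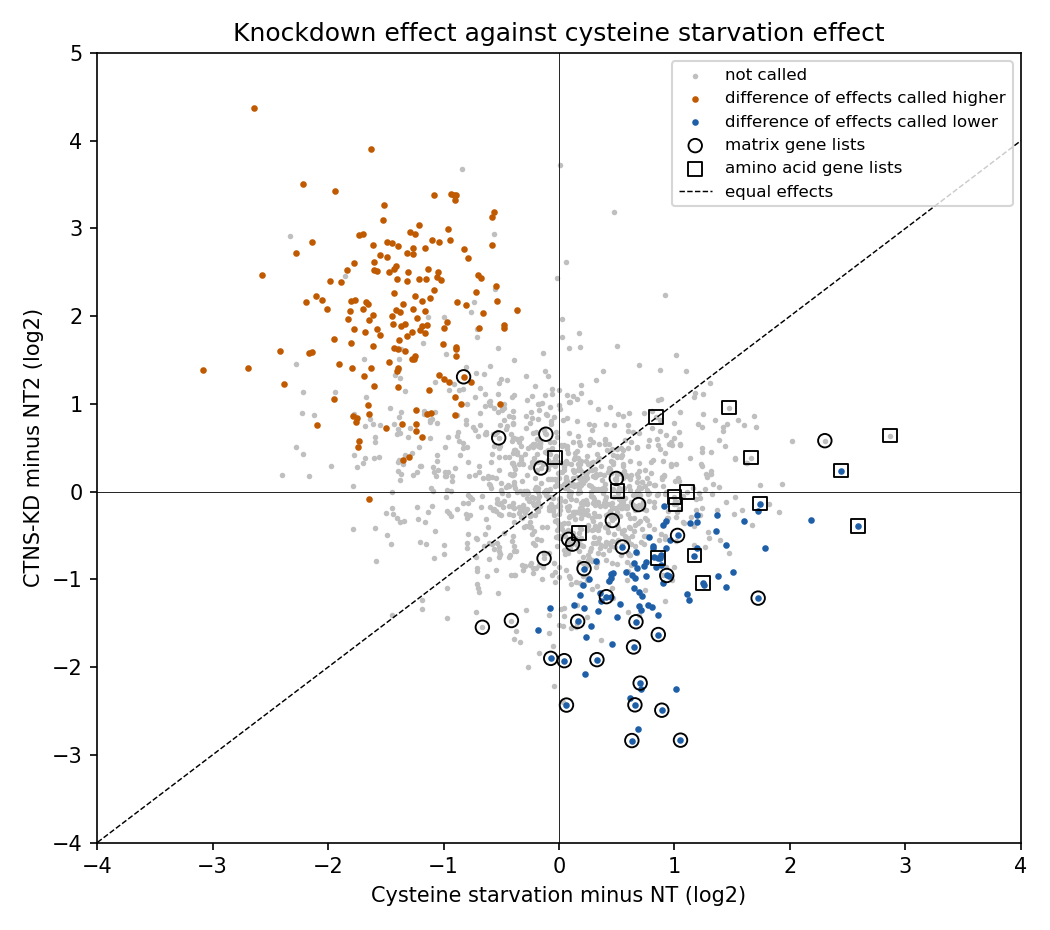
Knockdown effect (CTNS-KD minus NT2, log2, vertical axis) against starvation effect (Cys minus NT, log2, horizontal axis) for 1399 transcripts, with the dashed line where both are equal. The 168 transcripts called higher lie mostly in the upper left, the 100 called lower mostly in the lower right, circled matrix genes lie mostly low and boxed amino acid genes mostly to the right.

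The difference of effects equals the direct difference between CTNS-KD and Cys plus the gap between the 2 untreated groups, NT minus NT2, so that gap enters every value whole. NT and NT2, both labelled as without treatment, differed in 341 transcripts (24.4%), with 224 higher (16.0%) and 117 lower (8.36%) in NT. For the higher calls the gap was large: NT lay above NT2 in all 168, by a median of 3.72, and the gap was called in 159. Set directly against Cys, CTNS-KD was above it in 64 and below it in 104, with a median of -0.32, and 7 were called higher and 25 lower. For the lower calls the gap was smaller, with a median of -0.91. It lay within 1 of 0 in 62 of 100 and was called in 37. Set directly against Cys, CTNS-KD was below it in 98 of the 100. Of the 100, 49 were called lower and 0 higher, while over all transcripts the direct comparison called 7.29% lower and 4.22% higher. The direct comparison shares the CTNS-KD and Cys libraries with the difference and is a part of it. These counts therefore describe the calls and are no separate support. The comparison also holds whatever else differed between the CTNS-KD and Cys libraries.

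**Figure D2:**
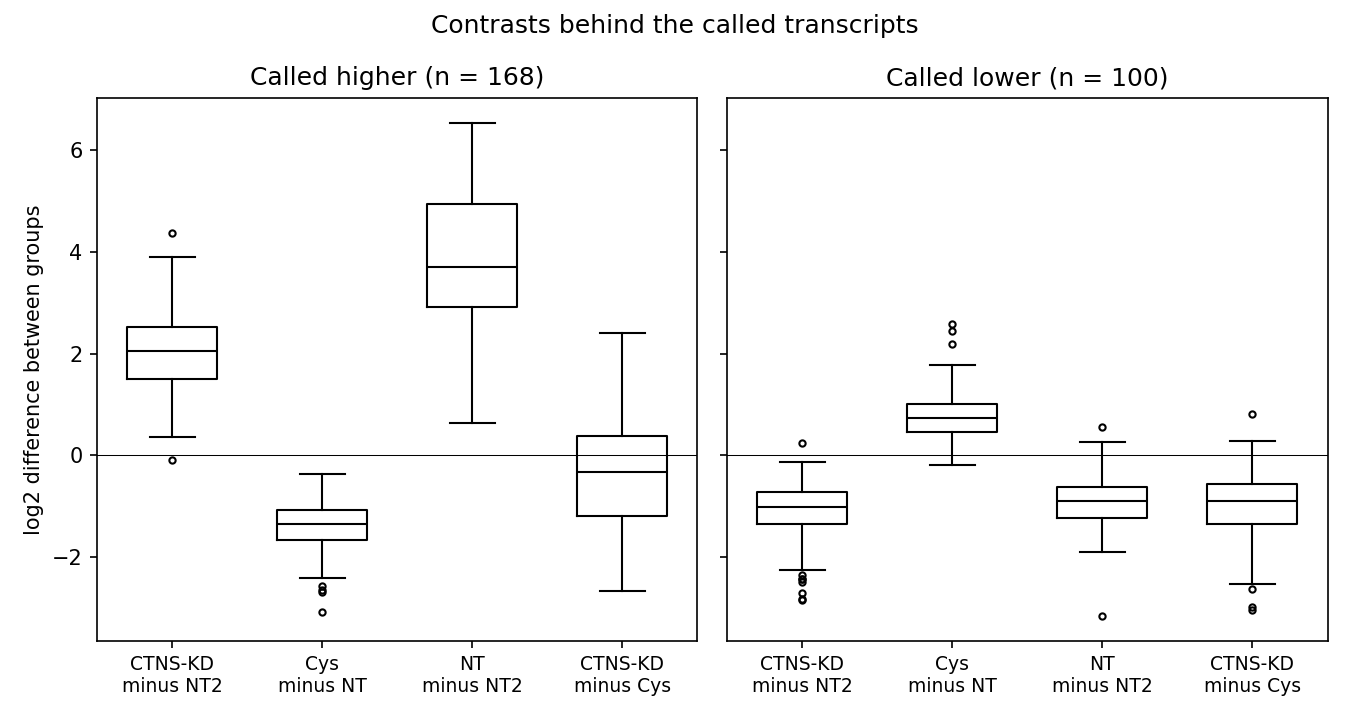
Box plots (box, quartiles; line, median; whiskers, 1.5 times the interquartile range) of 4 log2 differences for the 168 transcripts called higher (left) and the 100 called lower (right) in the difference of effects. On the left the gap between NT and NT2 has a median of 3.72 and the direct difference straddles 0; on the right the direct difference has a median of -0.89 and nearly all of it is below 0.

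Extracellular matrix genes supplied 5 of the 10 lowest differences. Of the 32 genes measured in 4 matrix lists 19 were lower and 1 higher, against 7.15% and 12.0% of all transcripts, and 28 lay below 0. Their median difference was -1.62, with medians of -1.21 in the knockdown and 0.44 in starvation. The knockdown effect alone was called lower for 21 and higher for 1, against 13.2% and 17.6% of all transcripts. The starvation effect lay above 0 for 24. Both knockdown libraries lay under both NT2 libraries and both starved libraries over both NT libraries in 14, against 11.7% of all transcripts. The direct comparison of CTNS-KD with Cys called 18 of the 32 lower. With each library left out in turn the count of lower calls ranged from 14 to 17, and it was 15 without NT replicate 2, the library with the lowest total.

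Fibrillar collagens and the enzymes that modify them led this group, with 7 lower and 1 higher of 9, against 7.15% and 12.0% of all transcripts. Their median was -2.15. Lox (ENSMUST00000025409), the lysyl oxidase that crosslinks collagen and elastin, had the smallest adjusted p of all transcripts. It measured 166 and 100.5 CPM in CTNS-KD libraries, against 970.0 and 978 CPM in NT2 libraries. It measured 1056 and 1127 CPM in Cys libraries, against 537 and 489.8 CPM in NT libraries. The knockdown libraries thus lay far under all 6 others and the starved libraries over both NT libraries, with no overlap in either pair. The knockdown effect was -2.83 ± 0.21, the starvation effect 1.05 ± 0.29 and the difference -3.88 ± 0.36 (adjusted p = 1.19e-05), and the direct comparison gave -2.99 ± 0.24.

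Col1a2 (ENSMUST00000031668), the alpha-2 chain of type I collagen, whose promoter is printed above, measured 791 and 895 CPM in CTNS-KD libraries, against 6529 and 5518 CPM in NT2 libraries. It measured 4143 and 5608 CPM in Cys libraries, against 3939.6 and 2057 CPM in NT libraries. The knockdown values were again the lowest of the 8, while the starved values lay over the NT values by an amount that did not pass the test. The difference of effects was -3.47 ± 0.49 (adjusted p = 0.000337). Col5a2, a type V collagen chain that sets the width of type I fibrils, had a difference of -3.38 ± 0.41 (adjusted p = 0.000192), with 640.3 and 521 CPM in CTNS-KD libraries against 3441 and 3113 CPM in NT2 libraries, and 3614 and 3555 CPM in Cys libraries against 2292 and 1372 CPM in NT libraries. Col3a1, the fibrillar collagen of loose connective tissue, measured 489.6 and 393 CPM in CTNS-KD libraries, against 2174 and 1854 CPM in NT2 libraries, and 1617 and 2278 CPM in Cys libraries, against 1289 and 979.7 CPM in NT libraries. The order of its groups was that of Col1a2, and its difference was -2.88 ± 0.44 (adjusted p = 0.000519). In these 3 collagens the knockdown accounted for most of the size: the knockdown effects were -2.84 ± 0.35, -2.49 ± 0.28 and -2.18 ± 0.28, and the starvation effects 0.63 ± 0.35, 0.89 ± 0.30 and 0.70 ± 0.34.

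1 gene of this list went the other way and was picked for that after its value was seen. P4ha1, a subunit of the prolyl hydroxylase that stabilises collagen helices, measured 286 and 466 CPM in CTNS-KD libraries, against 127 and 174 CPM in NT2 libraries. It measured 379.6 and 576 CPM in Cys libraries, against 752 and 979.7 CPM in NT libraries. Its difference of 2.14 ± 0.57 (adjusted p = 0.0142) came with a gap of 2.45 between NT and NT2, and the direct comparison gave -0.32 (adjusted p = 0.634). The matrix lists held 0 higher calls when Cys replicate 1, NT2 replicate 1 or CTNS-KD replicate 2 was left out.

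The matrix glycoproteins followed the collagens. Of 12 matricellular and other matrix genes 5 were lower and 0 higher, against 7.15% and 12.0% of all transcripts. Thbs1, the thrombospondin that binds and activates latent TGF-beta, measured 136 and 164 CPM in CTNS-KD libraries, against 816 and 799 CPM in NT2 libraries, and 974 and 726 CPM in Cys libraries, against 573 and 489.8 CPM in NT libraries. Both knockdown libraries lay under the other 6, and the difference was -3.09 ± 0.40 (adjusted p = 0.000219). Fn1, fibronectin, measured 4708 and 4776 CPM in CTNS-KD libraries, against 14902 and 14430.3 CPM in NT2 libraries, and 15249.8 and 12091 CPM in Cys libraries, against 9348 and 5486 CPM in NT libraries (difference -2.49 ± 0.50, adjusted p = 0.00272). Timp3, a metalloproteinase inhibitor held in the matrix, had a difference of -2.42 ± 0.40 (adjusted p = 0.000885). Thbs2 differed from these in its parts, with a starvation effect of -0.07 ± 0.35. Its difference of -1.83 ± 0.45 (adjusted p = 0.00999) was thus the knockdown effect of -1.90 ± 0.29 alone. Limma-trend did not call this difference (adjusted p = 0.0615).

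The basement membrane genes held 5 lower calls and 0 higher among 8, against 7.15% and 12.0% of all transcripts. All 8 were below NT2 in the knockdown and above NT in starvation, as were 419 of all 1399 transcripts. Libraries overlapped in neither pair for 6 of the 8, against 11.7% of all transcripts with that order. Nid1, the nidogen that links laminin to type IV collagen, lay under NT2 in the knockdown and over NT in starvation, without overlap. Its knockdown libraries overlapped those of NT. It measured 173 and 265 CPM in CTNS-KD libraries, against 558 and 441 CPM in NT2 libraries. In Cys libraries it measured 842 and 701 CPM, against 251 and 196 CPM in NT libraries, which rest on 7 and 2 counts. Its knockdown effect was -1.21 ± 0.23, its starvation effect 1.72 ± 0.41 and their difference -2.94 ± 0.46 (adjusted p = 0.000692). Its paralog Nid2 had effects of -2.43 ± 0.21 in the knockdown and 0.06 ± 0.40 in starvation and a difference of -2.50 ± 0.44 (adjusted p = 0.00117). Lamc1, the laminin gamma-1 chain, stood at -1.89 ± 0.44 (adjusted p = 0.00718; 0.0717 without NT replicate 1). Hspg2, the proteoglycan perlecan, stood at -1.53 ± 0.46 (adjusted p = 0.0288), and its call was lost without either CTNS-KD library, either NT2 library, Cys replicate 2 or NT replicate 2 (adjusted p 0.0542 to 0.0881). Of 3 type VI collagen genes Col6a2 (-2.24 ± 0.52, adjusted p = 0.00683) and Col6a1 (-1.61 ± 0.42, adjusted p = 0.0124) were lower, and both calls were lost without NT replicate 1 (adjusted p = 0.0764 and 0.0527).

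**Figure D3:**
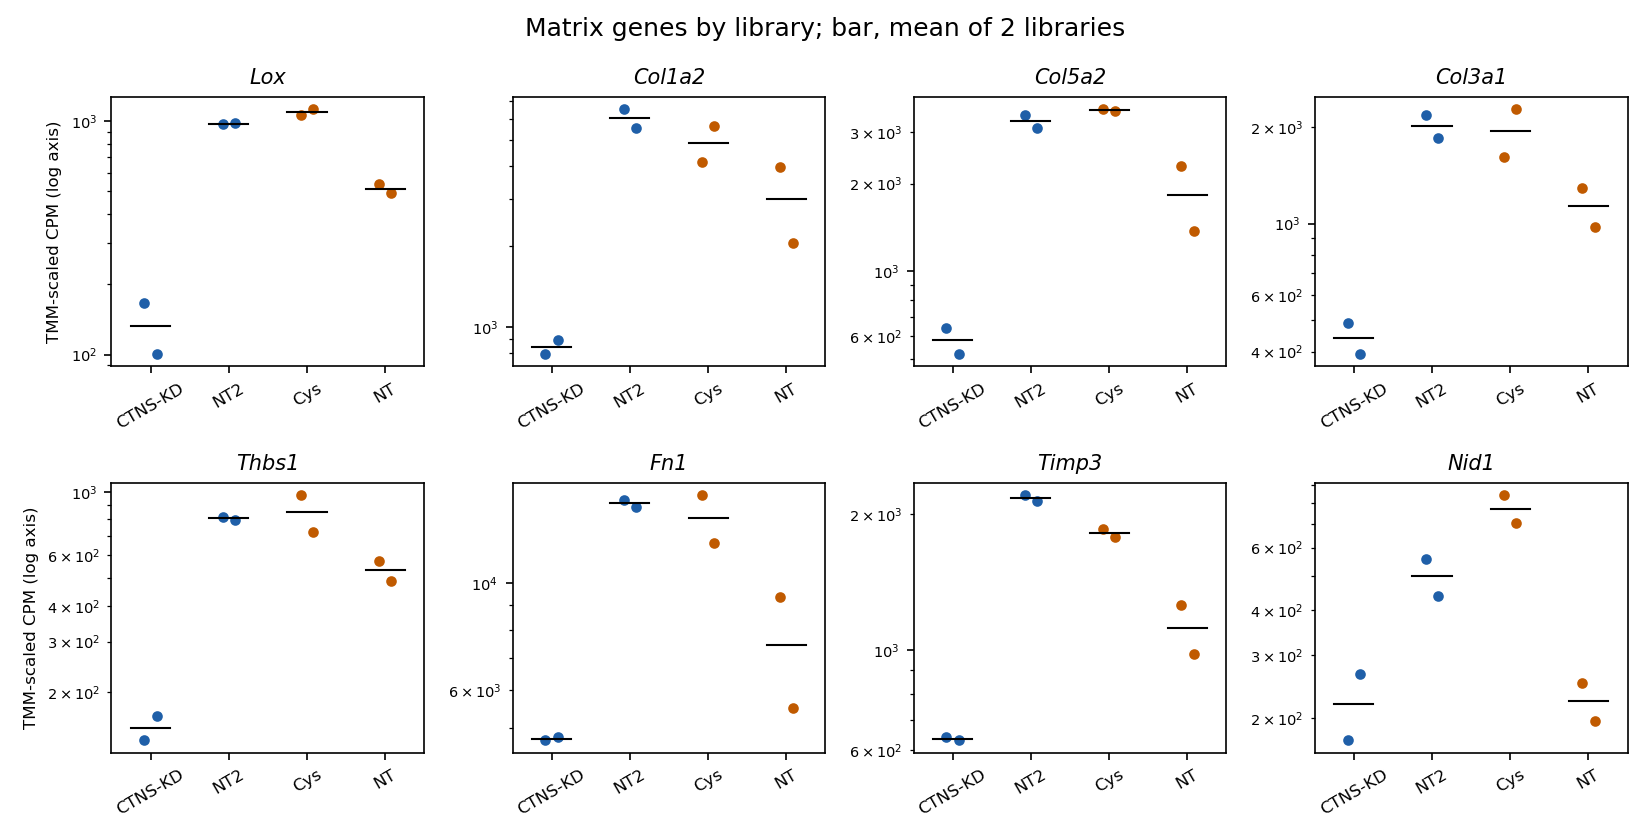
TMM-scaled CPM (log axis) of 8 matrix genes in each library of CTNS-KD, NT2, Cys and NT, with a bar at the mean of the 2 libraries of a group. In each panel except that of Nid1 both CTNS-KD libraries lie under all 6 others, and both Cys libraries lie over both NT libraries in all 8.

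The genes of amino acid supply lay above NT in starvation in 15 of 16 cases and went both ways in the knockdown. Of 16 genes in the transporter, synthesis and tRNA synthetase lists 6 were lower and 0 higher, against 7.15% and 12.0% of all transcripts, and DESeq2 and limma-trend called 4 lower and voom 2. In the knockdown 3 were called lower, Aldh18a1, Slc38a2 and Vars, and 1 higher, Sars (0.85), against 13.2% and 17.6% of all transcripts. Sars was named after its value was seen. The median difference was -1.22, with medians of -0.035 in the knockdown and 1.14 in starvation. Set directly against Cys, CTNS-KD was called lower in 5 of the 16 and higher in 0, against 7.29% and 4.22% of all transcripts. The count depended on single libraries: 1 was called without Cys replicate 1, 2 without NT replicate 1, 3 without NT2 replicate 1 and 8 without Cys replicate 2.

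Synthesis enzymes gave 3 lower calls among 4. Mthfd2 (ENSMUST00000005810), the mitochondrial folate enzyme whose promoter is printed above, measured 136 and 228 CPM in CTNS-KD libraries, against 242 and 228 CPM in NT2 libraries. It measured 446 and 526 CPM in Cys libraries, against 71.6 and 98.0 CPM in NT libraries, which rest on 3 counts in all. The starved libraries were the highest of the 8 and the NT libraries the lowest. The difference was -2.98 ± 0.70 (adjusted p = 0.00718), and the ratio of starved to NT exceeded the ratio of knockdown to NT2 7.89-fold (95% interval 2.35 to 41.7, counting error only). Without NT replicate 1 its adjusted p was 0.0980.

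Aldh18a1, which opens proline synthesis, measured 166 and 174 CPM in CTNS-KD libraries, against 364 and 334 CPM in NT2 libraries, and 627 and 501 CPM in Cys libraries, against 107 and 588 CPM in NT libraries. The knockdown libraries lay under NT2, and the NT libraries disagreed with each other. Its difference of -2.29 ± 0.58 (adjusted p = 0.0106) became -1.01 without NT replicate 1 (adjusted p = 0.261), and without Cys replicate 1 it was also not called (adjusted p = 0.0560). Shmt2, the mitochondrial serine hydroxymethyltransferase, measured 264 and 219 CPM in CTNS-KD libraries, against 234 and 305 CPM in NT2 libraries, and 611 and 626 CPM in Cys libraries, against 179 and 196 CPM in NT libraries. The starved libraries stood over the other 6, and the knockdown libraries overlapped NT2. Its difference was -1.88 ± 0.57 (adjusted p = 0.0302), and it was called under 9 of 18 alternatives, with adjusted p 0.0706 to 0.202 without either NT library, Cys replicate 1, NT2 replicate 2 or CTNS-KD replicate 2. Phgdh, the first enzyme of serine synthesis, had a difference of -1.15 ± 0.49 that was not called (adjusted p = 0.111).

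Among transporters 1 of 4 was lower. Slc38a2, a sodium-coupled carrier of glutamine and other neutral amino acids, had a difference of -1.90 ± 0.53 (adjusted p = 0.0170). It had effects of -0.73 ± 0.24 in the knockdown and 1.17 ± 0.48 in starvation, on 8 and 1 counts in NT libraries. It lost the call without Cys replicate 1 (adjusted p = 0.159), NT replicate 2 (0.0608) or NT2 replicate 1 (0.0518). Slc3a2, the heavy chain that the cystine importer and other exchangers share, was not called (-2.23 ± 0.80, adjusted p = 0.0619), but was without NT replicate 2 (-3.36, adjusted p = 0.0444) or Cys replicate 2 (adjusted p = 0.0451). It measured 234 and 210.1 CPM in CTNS-KD libraries, against 123 and 165 CPM in NT2 libraries, and 693 and 451 CPM in Cys libraries, against 35.8 and 196 CPM in NT libraries, on 3 counts in NT. Both treatments lay over their own untreated group without overlap, and the ratio was 4.74-fold larger in starvation (95% interval 1.42 to 24.96, counting error only). Slc7a11, the light chain of the cystine importer, was not analysed here.

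Of 8 aminoacyl-tRNA synthetases 2 were lower. Lars, which charges leucine, stood at -2.20 ± 0.65 (adjusted p = 0.0254), with a starvation effect of 2.44 ± 0.58 on 4 counts in NT and a knockdown effect of 0.24 ± 0.24. It was called under 9 of 18 alternatives, with adjusted p 0.0539 to 0.242 without either NT library, Cys replicate 1, NT2 replicate 1 or CTNS-KD replicate 2. Vars, which charges valine, stood at -1.61 ± 0.46 (adjusted p = 0.0196), and lost the call without Cys replicate 1, NT replicate 2, NT2 replicate 1 or CTNS-KD replicate 1 (adjusted p 0.0518 to 0.0764). Aars, which charges alanine, measured 1129.9 and 1059 CPM in CTNS-KD libraries, against 887 and 784 CPM in NT2 libraries, and 1122 and 876 CPM in Cys libraries, against 251 and 489.8 CPM in NT libraries. Knockdown and starved libraries overlapped while NT lay under NT2, and its difference of -1.28 ± 0.43 missed the threshold (adjusted p = 0.0501), with a direct difference of 0.11 ± 0.22. It passed without NT replicate 2 (adjusted p = 0.0360) or Cys replicate 2 (adjusted p = 0.0328).

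Atf4 (ENSMUST00000109605), the transcription factor of this response, was lower in the difference. It measured 527 and 429 CPM in CTNS-KD libraries, against 622 and 609.9 CPM in NT2 libraries. It measured 1172 and 726 CPM in Cys libraries, against 466 and 392 CPM in NT libraries. Both knockdown libraries were under NT2 and both starved libraries over NT. The difference was -1.49 ± 0.42 (adjusted p = 0.0204), with effects of -0.36 ± 0.21 (adjusted p = 0.213) in the knockdown and 1.14 ± 0.37 (adjusted p = 0.123) in starvation, and the direct comparison gave -1.02 ± 0.24 (adjusted p = 0.0119). The call was lost under 7 of 18 alternatives, among them the fits without either NT library, Cys replicate 1, NT2 replicate 1 or CTNS-KD replicate 2 (adjusted p 0.0501 to 0.132). Vegfa, an angiogenic factor that ATF4 can induce, had a starvation effect of 2.02 ± 0.47 and a knockdown effect of 0.58 ± 0.27, and its difference was not called (-1.44 ± 0.57, adjusted p = 0.0847). Set directly against Cys it was lower in CTNS-KD (-1.46 ± 0.27, adjusted p = 0.00334).

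**Figure D4:**
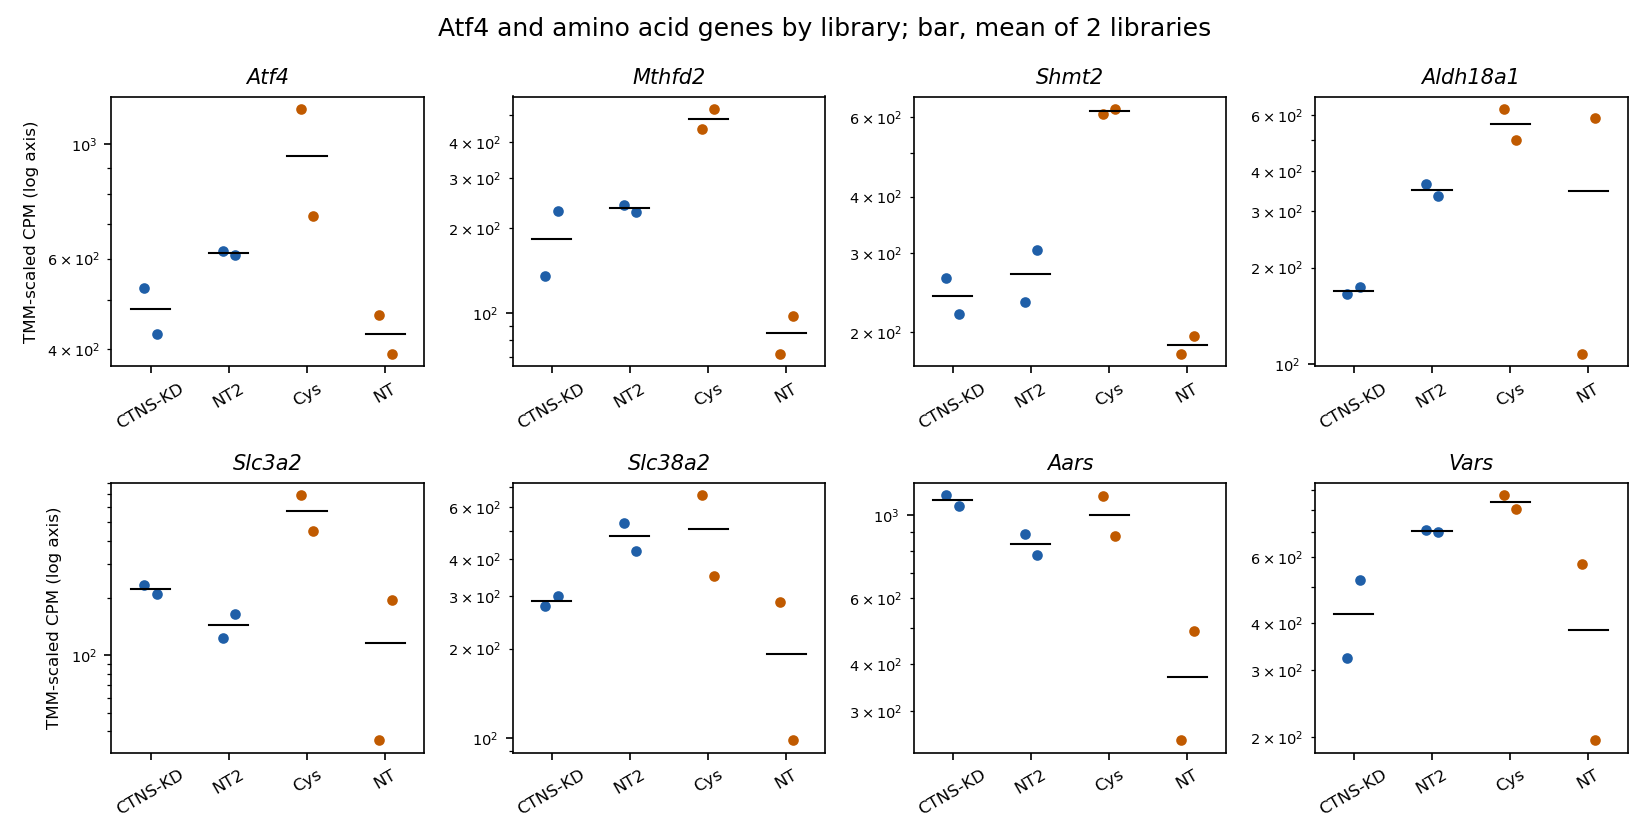
TMM-scaled CPM (log axis) of Atf4 and 7 genes of amino acid supply in each library of CTNS-KD, NT2, Cys and NT, with a bar at the mean of the 2 libraries. Both Cys libraries lie over both NT libraries for each gene except Aldh18a1, for which 1 NT library reached 588 CPM, while CTNS-KD and NT2 lie close together for Mthfd2, Shmt2 and Atf4.

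In 17 of the 100 lower calls the knockdown effect was not called. They included Mthfd2, Shmt2, Lars, Atf4, Hspg2 and Ccn1, with a median of -0.34 in the knockdown and 1.199 in starvation, a size that the choice of these 17 favours. In the other 83, which included Lox and the collagens as well as Aldh18a1, Slc38a2 and Vars, the medians were -1.15 in the knockdown and 0.68 in starvation.

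Contractile, focal adhesion and YAP target genes gave 6 lower calls and 0 higher among 23, against 7.15% and 12.0% of all transcripts, with a median of -0.96, and 21 of 23 lay below 0. The number of lower calls depended on single libraries and rose or fell with the library left out. Acta2, smooth muscle actin, measured 399 and 384 CPM in CTNS-KD libraries, against 788 and 692 CPM in NT2 libraries, and 545 and 851 CPM in Cys libraries, against 215 and 294 CPM in NT libraries. Its groups did not overlap in either pair, and its difference was -2.43 ± 0.45 (adjusted p = 0.00163). The gap between NT and NT2 was -1.64 (adjusted p = 0.0046). Vcl, the focal adhesion protein vinculin, stood at -1.82 ± 0.40 (adjusted p = 0.00462) and Zyx, zyxin of the same structures, at -1.60 ± 0.42 (adjusted p = 0.0134). Limma-trend did not call Zyx (adjusted p = 0.0709). Ccn1, a secreted YAP target, stood at -1.93 ± 0.48 (adjusted p = 0.0102) with a knockdown effect of -0.33 ± 0.22 that was not called. Its gap between NT and NT2 was -1.50 (adjusted p = 0.0133) and its direct difference -0.44 (adjusted p = 0.283). It lost the call without Cys replicate 1 (adjusted p = 0.0621).

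Outside the lists, Slc18a2, Smpd3 and Lrrn4 also stood among the 10 lowest. Slc18a2, the vesicular monoamine transporter, measured 392 and 402 CPM in CTNS-KD libraries, against 2039 and 1738 CPM in NT2 libraries, and 1667 and 1277 CPM in Cys libraries, against 895 and 392 CPM in NT libraries (difference -3.26 ± 0.40, adjusted p = 0.000192). Smpd3, the neutral sphingomyelinase that makes ceramide, stood at -2.96 ± 0.48 (adjusted p = 0.000854), and Lrrn4, a leucine-rich repeat membrane protein, at -3.39 ± 0.54 (adjusted p = 0.000715). Slit3, a secreted ligand of Robo receptors, stood at -2.30 ± 0.49 (adjusted p = 0.00404) and had a gap of -0.22. The knockdown effect of these 4 ran from -2.71 in Lrrn4 to -2.08 in Slit3. All 4, and Lox, Col1a2, Col5a2, Col3a1, Thbs1, Fn1, Timp3, Nid1, Nid2, Acta2 and Vcl, stayed called under the 18 alternatives that kept the same difference.

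Ribosomal protein genes lay below 0 together with the gap between the untreated groups. Of 52 genes 7 were lower and 0 higher, against 7.15% and 12.0% of all transcripts, and DESeq2 called 4 lower, limma-trend 4 and voom 1. In edgeR's fit 49 lay below 0 and the median was -0.86. The knockdown effect lay below 0 in 48, against 629 of all 1399 transcripts, with a median of -0.34. It was called lower in 9 and higher in 0, against 13.2% and 17.6% of all transcripts. The starvation effect lay above 0 in 44, against 711 of all 1399, with a median of 0.53. NT minus NT2 had a median of -0.92 in these genes, against -0.15 over all transcripts. It was called lower in 15 of the 52, against 8.36% of all transcripts. Set directly against Cys the median was 0.04 and 1 was called lower, against 7.29% of all transcripts. The lower calls numbered 11 without NT replicate 1, 4 without Cys replicate 2, 3 without NT replicate 2 or NT2 replicate 2, 2 without NT2 replicate 1 or CTNS-KD replicate 2, and 1 without CTNS-KD replicate 1. Rpl7a measured 979 and 712 CPM in CTNS-KD libraries, against 1421 and 1418 CPM in NT2 libraries, and 1304 and 1202 CPM in Cys libraries, against 859.5 and 392 CPM in NT libraries (difference -1.56 ± 0.40, adjusted p = 0.0112; 0.0532 without CTNS-KD replicate 2). These genes have many near-identical pseudogene copies that can take or lend reads, which leaves their values uncertain.

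In chaperone, redox and lysosomal lists at most 1 gene was called in either direction, against 12.0% of all transcripts higher and 7.15% lower. Of 11 endoplasmic reticulum chaperones 1 was lower, Serpinh1, which folds procollagen (-1.64 ± 0.42, adjusted p = 0.0112). Limma-trend did not call Serpinh1 (adjusted p = 0.0595). It measured 708 and 795 CPM in CTNS-KD libraries, against 1504 and 1457 CPM in NT2 libraries, and 1353 and 1752 CPM in Cys libraries, against 967 and 979.7 CPM in NT libraries. Its groups overlapped in neither pair. Of 13 heat shock chaperones 1 was higher, Hsph1, and 1 lower, Cct4, a chaperonin subunit (-1.94 ± 0.60, adjusted p = 0.0309). Cct4 was not called without either NT library, Cys replicate 1, NT2 replicate 1 or CTNS-KD replicate 1 (adjusted p 0.0745 to 0.242). Of 4 NRF2 target and redox genes edgeR called 0 in the difference, as did DESeq2, limma-trend and voom, with 1 at an unadjusted p under 0.05. Sqstm1, the autophagy receptor p62, measured 1522 and 1571 CPM in CTNS-KD libraries, against 368 and 281 CPM in NT2 libraries, and 941 and 376 CPM in Cys libraries, against 358 and 392 CPM in NT libraries. It rose in the knockdown (2.24 ± 0.24, adjusted p = 2.2e-05), while the starved libraries overlapped NT (0.92 ± 0.47, adjusted p = 0.345), and the difference was 1.32 ± 0.58 (adjusted p = 0.122). Without Cys replicate 1 that difference was 2.21 (adjusted p = 0.0134).

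Of 8 ferroptosis and iron genes the 1 lower call was Atf4, already given. Gpx4, the lipid peroxide reductase that protects cells from ferroptosis, stood at -1.24 ± 0.82 (adjusted p = 0.402) on 2 counts in NT, with effects of 0.03 ± 0.28 in the knockdown and 1.26 ± 0.76 in starvation. Of 5 lysosomal genes 1 was higher, Fnip2, a folliculin partner in lysosomal nutrient sensing (2.03 ± 0.58, adjusted p = 0.0225), with a gap of 1.71 between NT and NT2. Fnip2 was not called without either NT library, Cys replicate 1, NT2 replicate 1 or CTNS-KD replicate 2 (adjusted p 0.0518 to 0.190). Lamp1, a lysosomal membrane glycoprotein, stood at -0.83 ± 0.45 (adjusted p = 0.210), and set directly against Cys it was higher in CTNS-KD (1.03 ± 0.25, adjusted p = 0.0138), so that its direction rested on the untreated groups. Of 7 mitochondrially encoded genes all 4 tools called 0 in the difference, with 1 at an unadjusted p under 0.05 in edgeR. The cytochrome oxidase subunit gene mt-Co2 had the smallest p (-1.12 ± 0.44, adjusted p = 0.0819), with a direct difference of 0.87.

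Other lists held single calls, against 12.0% of all transcripts higher and 7.15% lower. Of 20 splicing and RNA-binding genes 1 was lower, Hnrnpk (-1.43 ± 0.36, adjusted p = 0.0112; 0.0666 without NT replicate 1, 0.0961 without Cys replicate 1). Of 2 interferon response genes Rnf213, a large ubiquitin ligase, was lower (-2.003 ± 0.35, adjusted p = 0.00128), and H2-D1, a class I antigen-presenting molecule, stood at 2.07 ± 0.76 and was not called (adjusted p = 0.103). Of 6 lipid synthesis genes Scd2, a stearoyl-CoA desaturase, was lower (-1.36 ± 0.46, adjusted p = 0.0495) and was called under 5 of 18 alternatives, NT replicate 2 being the only library without which the call stayed (adjusted p 0.0627 to 0.309 without any 1 of the others). The gap of Scd2 between NT and NT2 was -1.64 (adjusted p = 0.00217) and its direct difference 0.28. Of 20 chromatin regulators 1 was higher, the remodelling ATPase Smarca5 (2.14 ± 0.55, adjusted p = 0.0124), of 14 proteasome genes Psmc3 (1.80 ± 0.48, adjusted p = 0.0135) and of 9 replication genes Pole (2.28 ± 0.65, adjusted p = 0.0204). For Smarca5, Psmc3 and Pole the gap between NT and NT2 was 2.71, 1.69 and 1.62, and the direct comparison called none of the 3. All 3 lost the call without Cys replicate 1 (adjusted p 0.0633, 0.0855 and 0.106), Smarca5 also without NT2 replicate 2 (0.0517), Psmc3 without NT replicate 2 (0.0829) and Pole without NT replicate 1 (0.178). In edgeR's test 0 of 15 translation factors, 0 of 8 nucleolar factors, 0 of 9 mitosis genes, 0 of 6 tubulin genes and 0 of 5 glycolysis genes were called, and 2, 1, 1, 0 and 0 of them had an unadjusted p under 0.05. DESeq2 called 1 translation factor lower and 1 nucleolar factor higher, voom 1 translation factor lower, and limma-trend 0 of these.

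**Figure D5:**
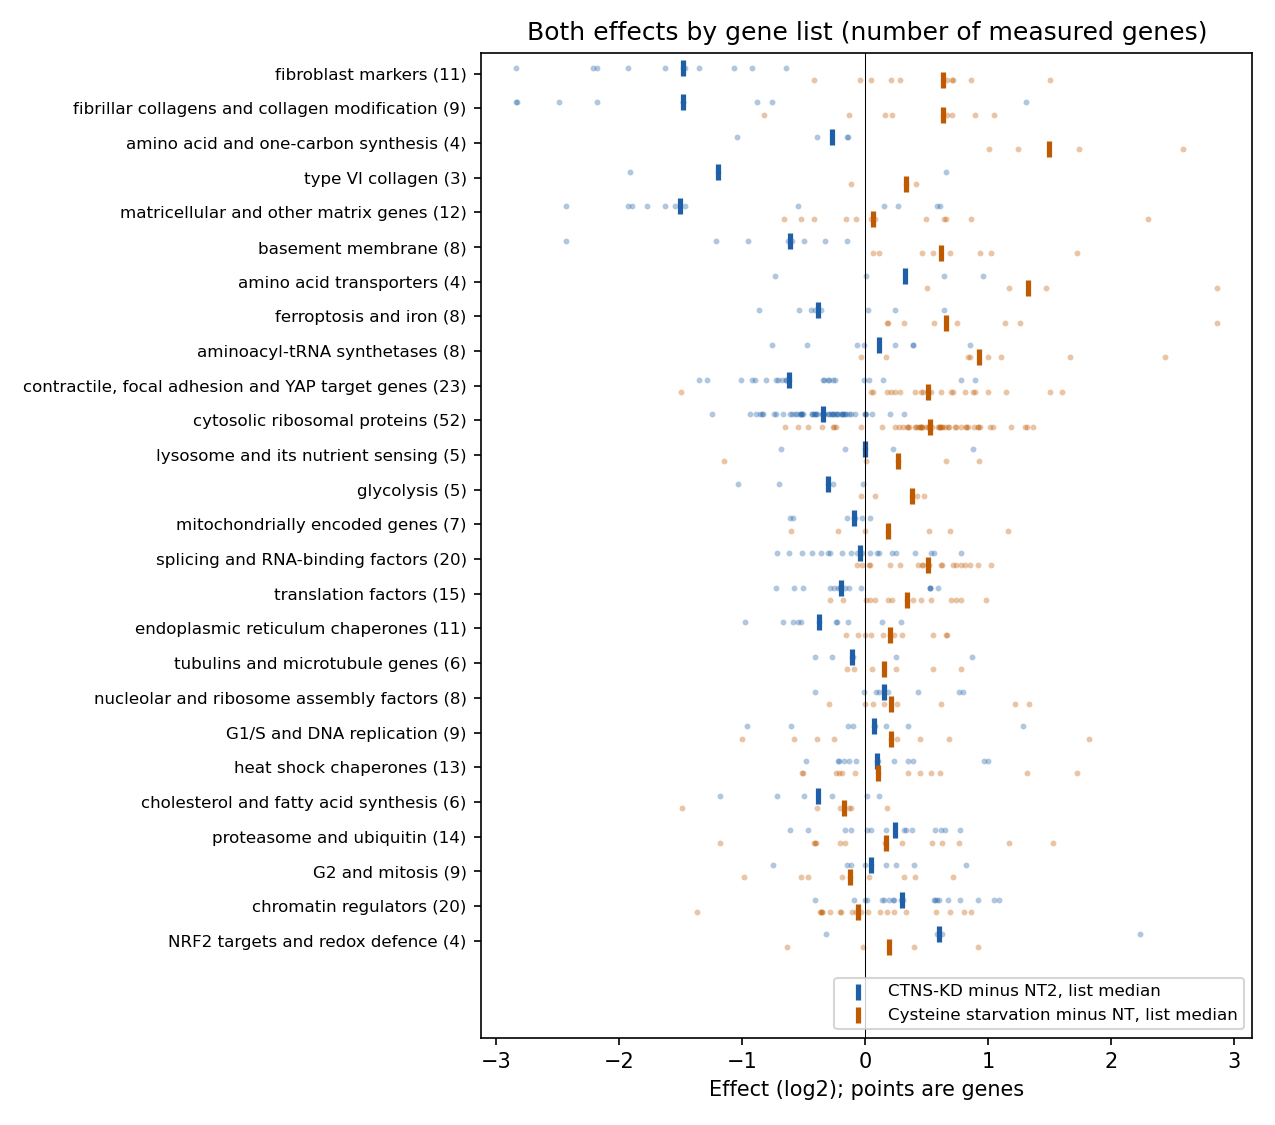
Knockdown effect (CTNS-KD minus NT2, blue) and starvation effect (Cys minus NT, orange) on the log2 scale for each gene (points) of 26 lists, with a bar at each list median and the number of measured genes in brackets. The medians of the fibrillar collagen list are -1.48 in the knockdown and 0.63 in starvation, and those of the amino acid synthesis list are -0.27 and 1.49 in the same order.

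The highest differences belonged to transcripts abundant in NT. The 10 highest among those with a mean count of 20 or more ranged from 4.25 to 5.53 and were Lca5l, Zfp831, Aldh5a1, Pglyrp3, Gnal, Cubn, Sh2d2a, Cbfa2t3, Ccn6 and Icam5. As background, Icam5 is an adhesion molecule, Gnal a G protein alpha subunit, Cubn an endocytic receptor, Pglyrp3 a peptidoglycan recognition protein, Aldh5a1 a succinate semialdehyde dehydrogenase and Cbfa2t3 a transcriptional corepressor. Cbfa2t3 (adjusted p = 0.0309) lost its call under 7 of 18 alternatives, among them the fits without either NT library, either Cys library, NT2 replicate 1 or CTNS-KD replicate 2 (adjusted p 0.0649 to 0.203). Zfp831, a zinc finger gene, measured 4768 and 2949.9 CPM in CTNS-KD libraries, against 503 and 503 CPM in NT2 libraries, and 2855 and 7159.6 CPM in Cys libraries, against 7808 and 24982 CPM in NT libraries. NT was the highest group and NT2 the lowest, with knockdown and starved libraries between them. Its difference was 4.63 ± 0.78 (adjusted p = 0.000965), its gap 4.998 ± 0.62 and its direct difference -0.37 ± 0.52. Set directly against Cys none of these 10 was called higher in CTNS-KD, and Pglyrp3 (-2.17), Cubn (-1.71) and Ccn6 (-1.64) were called lower.

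3 higher calls with a mean count of 20 or more had a gap within 1 of 0, and all 3 were also called higher directly. Sltm, a nuclear RNA-binding protein, measured 866 and 621 CPM in CTNS-KD libraries, against 202 and 198 CPM in NT2 libraries, and 264 and 175 CPM in Cys libraries, against 251 and 489.8 CPM in NT libraries. Its knockdown libraries were the highest of the 8, and its difference was 2.38 ± 0.62 (adjusted p = 0.0134), lost without NT replicate 2 (adjusted p = 0.0914). Hsph1, a nucleotide exchange factor of Hsp70, measured 776 and 995 CPM in CTNS-KD libraries, against 412 and 469.6 CPM in NT2 libraries, and 594 and 325 CPM in Cys libraries, against 645 and 784 CPM in NT libraries (difference 1.51 ± 0.43, adjusted p = 0.0196; 0.0633 to 0.0801 without either NT library, NT2 replicate 1 or CTNS-KD replicate 2). Nudc, a dynein and Hsp90 partner, stood at 1.86 ± 0.46 (adjusted p = 0.00999), and at 0.78 without NT replicate 1 (adjusted p = 0.730).

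Markers of the labelled cell type were present and moved with the matrix result. Of 20 fibroblast markers 11 were measured. Among these 8 were lower and 0 higher in the difference, against 7.15% and 12.0% of all transcripts. Their summed level was 11946 to 12067 CPM in CTNS-KD and 36219 to 39386 CPM in NT2, against 32843 to 36123 CPM in Cys and 16165 to 25643 CPM in NT. Of the 11, 6 are matrix genes and 3 contractile genes already counted above. In bulk RNA fewer cells of a type and less RNA per cell cannot be told apart. Markers of other types were few: 1 of 14 epithelial, 1 of 23 muscle, 1 of 14 exocrine pancreas and 1 of 11 endothelial genes were measured, and 0 of 17 immune and 0 of 16 neural ones. The epithelial cadherin Cdh1 had only 12 and 6 counts in CTNS-KD libraries, 1 and 5 in NT2, 4 and 1 in Cys and 4 and 3 in NT. The smallest count in any library is 1. It measured 90.4 and 54.8 CPM in CTNS-KD libraries, against 3.96 and 24.2 CPM in NT2 libraries. In Cys libraries Cdh1 measured 66.0 and 25.03 CPM, against 143 and 294 CPM in NT libraries (difference 4.28 ± 1.25, adjusted p = 0.0232). That call was lost without CTNS-KD replicate 1, NT2 replicate 1, Cys replicate 2 or NT replicate 2 (adjusted p 0.0531 to 0.0910). Ttn, titin of striated muscle (2.94 ± 0.56, adjusted p = 0.00210), and Ctrb1, a pancreatic protease (7.02 ± 1.04, adjusted p = 0.000452), were also higher, with gaps of 2.30 and 4.97 between NT and NT2, and Flt1, an endothelial receptor, was not called (adjusted p = 0.157). Ctrb1 had a mean count under 20 over the 8 libraries and measured 11.9 to 14.5 CPM in NT2. The part of these markers in the result was not tested.

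Levels in other groups of the series are given beside these for the genes on which the comparison turned, without a test. With the CTNS plasmid added to the knockdown, Lox measured 209 and 211 CPM, Fn1 6312 and 6565 CPM and Thbs1 569 and 384 CPM. All of these lay between the CTNS-KD and NT2 values, as did those of Col1a2, Col3a1, Col5a2 and Timp3. Nid1 did not: its rescue libraries measured 189.6 and 173 CPM and overlapped CTNS-KD. Rescue libraries passed NT2 for Acta2 (995 and 842 CPM) and lay under CTNS-KD for Atf4 (313 and 347 CPM). With all amino acids withheld, Atf4 measured 272 and 572 CPM and Mthfd2 68.1 and 308 CPM, spanning their NT values. Those of Mthfd2 rest on 1 and 7 counts, against 2 and 1 counts in NT libraries. In the same libraries Slc38a2 measured 885 and 703 CPM, above both NT libraries, which held 8 and 1 counts.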

How the data were processed

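Polyadenylated RNA of MEFs was sequenced as fragments of 50 to 100 nucleotides, per the labels' protocols. Without giving roles, the submitters' processing notes list STAR 2.7.10a, Bowtie 1.2.3, cutadapt 2.8, bcl2fastq 2.20.0.422 and the assembly GRCm39. How reads were counted, with which annotation and strand setting, is not given in the sources used here. The authors deposited whole-number counts per Ensembl transcript, 1 table per library, named as CPM although their totals differ. Every transcript has a count of at least 1 in each library, so falls to 0 cannot be seen and totals are not depths. Names came from GENCODE M21 on GRCm38 for 1385 transcripts; 14 stayed unnamed.

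edgeR 4.0.16 (R 4.3.3) fitted 7 group means to all 14 libraries after TMM scaling, leaving 7 residual degrees of freedom, and the quasi-likelihood F test gave two-sided p-values, with Benjamini-Hochberg adjustment over all 1399 transcripts (threshold 0.05). A standard error is the log2 value over the root of F. The 6 libraries of full amino acid starvation, cysteamine and rescue entered only the estimate of the spread. Alternatives used DESeq2 1.42.0, limma 3.58.1 (limma-trend and voom), other scalings and filters, and each library left out. Counting intervals are exact at 95% and cover counting error only.

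Named genes were the 10 highest and 10 lowest called differences with a mean count of 20 or more over the 8 libraries, the same among those with an untreated gap within 1 of 0 (3 in the higher direction), from each list the 4 or fewer genes of smallest p, the members of lists of 1 or 2, and Atf4 and Gpx4. P4ha1 and Sars were named outside this rule. 1 gene that the rule names is not reported here. The comparison, its lists and its rules were chosen with earlier results of these data known, so a list's count is a description. No set test was run.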

Additional observations from a re-analysis of the deposited data

How the results depend on the processing

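With all libraries 168 transcripts were higher and 100 lower in the difference, 431 were called in the knockdown, 0 in starvation and 341 between NT and NT2. In each alternative that kept this difference no called transcript changed sign. Starvation calls numbered 2 with DESeq2 size factors, 1 with scaling without the 10 highest transcripts, 67 with DESeq2, 5 with limma-trend and 2 with scaling on transcripts not called between NT and NT2, the last chosen after the data were seen. Limma-trend called 114 in the knockdown, and voom with quality weights left 59 lower. With only transcripts of a mean count of 20 or more fitted, 110 were higher, 73 lower and 152 called between NT and NT2. Leaving out 1 library at a time, the higher calls ranged from 109 (without NT replicate 2; 120 without Cys replicate 1) to 193 (without NT replicate 1) and the lower calls from 65 (without Cys replicate 1 or CTNS-KD replicate 2; 68 without NT2 replicate 1) to 103. Knockdown calls then ranged from 191 (without NT2 replicate 1; 231 to 237 without any 1 of NT2 replicate 2 and the CTNS-KD libraries) to 474, starvation calls from 0 to 112 (without NT replicate 1; 65 without Cys replicate 2) and calls between NT and NT2 from 192 (without NT replicate 2) to 346; the causes were not tested. Taking knockdown minus starved cells directly, without the untreated groups, left 59 higher calls, of which 7 were among the 168, and reversed Gnal (-1.29), Scd2 (0.28), Lamp1 (1.03), Aldh5a1 (-0.12), Smarca5 (-0.57), Pglyrp3 (-2.17), Zfp831 (-0.37), Ccn6 (-1.64), mt-Nd1 (0.78), mt-Co2 (0.87) and Cubn (-1.71), because the gap between NT and NT2 leaves the sum. DESeq2 size factors moved the median of all transcripts to 0.08 from -0.02. Among 2327 values of 123 named genes 2103 kept direction and call, 153 lost the call, 31 gained it, 29 uncalled ones changed sign and 11 reversed. Medians of the matrix and amino acid lists stayed below 0 in every alternative run. Those of heat shock, replication, mitosis, nucleolar, proteasome, lipid synthesis and tubulin genes crossed 0 in alternatives that kept the difference, and those of lysosomal, endoplasmic reticulum chaperone, ribosomal, translation factor, mitochondrially encoded, glycolysis and splicing genes were above 0 in the direct comparison alone.

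The replicate numbers are not stated to pair libraries, and with 2 pairs a check cannot show it: deviations of same-numbered libraries correlated at 0.13 (CTNS-KD with NT2) and 0.29 (Cys with NT). A fit with the replicate block called 196 higher, 111 lower, 520 in the knockdown, 80 in starvation and 348 between NT and NT2. The median count per transcript was 3 in NT replicate 2 and 61 in NT2 replicate 1, so the starvation effect limits the precision of every difference.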
